A study of Mus musculus with 6 samples.

Results

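Mast cell and basophil genes were examined as a set of 9 genes among 34542 listed in a gene count table of mouse fetal liver RNA. They were picked by name, with earlier results of these data known. The set holds the interleukin-33 receptor gene Il1rl1, the IgE receptor subunit genes Ms4a2 and Fcer1a and the histamine-forming enzyme gene Hdc. Its granule protease genes are Cpa3, Mcpt8, Prss34, Cma1 and Tpsb2. Polyadenylated RNA was sequenced from C57BL/6J fetal liver in 3 libraries of genotype miR-144/451-/- (KO, replicates 4 to 6; lacking the microRNA locus) and 3 wild-type libraries (WT, replicates 1 to 3). Every preparation started from an equal number of fetal liver cells. Embryonic age, and whether embryos were pooled, are not given in the labels used here. The p-values therefore refer to the spread among these 6 libraries, part of which may be technical.

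Mast cells and basophils are blood cells that bind IgE on their surface and store histamine, heparin-like proteoglycans and proteases in granules. Crosslinking of the IgE receptor releases the granules, and the cytokine interleukin-33 acts on the same cells through the receptor ST2, the product of Il1rl1. Their progenitors are present in fetal blood-forming tissue before the mature cells settle elsewhere. The factors GATA1 and GATA2, which bind DNA words with a GATA core, act in mast cells and basophils as well as in red cell and platelet precursors. ST2 is also made by group 2 innate lymphoid cells, some T cells and some endothelial cells, so Il1rl1 is not restricted to mast cells and basophils.

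All 9 genes had counts in every library, and their order by level per kilobase of the longest coding transcript ran over a wide range. In CPM (gene counts divided by the scaled library size) per kilobase, averaged over 6 libraries, Il1rl1 stood at 9.32, Mcpt8 at 8.20, Hdc at 8.17 and Cpa3 at 4.66. Prss34 followed at 2.32 and Ms4a2 at 1.64. Cma1 at 0.389, Tpsb2 at 0.240 and Fcer1a at 0.193 CPM per kilobase were the lowest. Hdc has 6389 exonic bases over all its annotated transcripts, against 2392 in the transcript used, so its place depends on the length chosen. The KO means of Il1rl1, Mcpt8 and Hdc were 6.28, 6.06 and 6.65 CPM per kilobase and the WT means 12.4, 10.3 and 9.69, so the order of these 3 differed between the groups and their neighbours in it lay close together. Set against its label, the set held its basophil proteases Mcpt8 and Prss34 and its histamine enzyme above 1 CPM in every library. The same held for the mast cell granule protease Cpa3, for Ms4a2 and for Il1rl1. The IgE-binding subunit gene Fcer1a and the mast cell proteases Cma1 and Tpsb2 stayed below 1 CPM in every library. In bulk RNA such as this, fewer cells of a type and less RNA per cell cannot be told apart.

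Before the members, the labels and the background were checked. Mir144 had 1, 1 and 0 counts in KO livers, against 51, 47 and 29 in WT livers, and Mir451 had 3, 2 and 4 counts in KO, against 323, 446 and 418 in WT. Gene counts totalled 40392139 to 44700229 per KO library and 24659978 to 36082084 per WT library. KO was tested against WT over 15105 genes by edgeR's quasi-likelihood test with Benjamini-Hochberg (BH) adjustment, and 3.28% of genes passed an adjusted p of 0.05. Erythroid and hepatocyte markers were abundant, as the labelled tissue would hold: 8 erythroid markers summed to 14519 to 17236 CPM in KO and 19589 to 27001 CPM in WT, and 15 hepatocyte markers to 12998 to 46504 CPM in KO and 8871 to 56991 CPM in WT. The hepatocyte sum was highest in KO replicate 6 and WT replicate 2.

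Il1rl1 was the 1 member called lower in KO livers by edgeR, at 50.8% of the WT level. Of the 8 members that passed the filter on low counts, 1 was called lower and 0 were called higher, beside 1.45% and 1.83% of all tested genes. Hdc and Ms4a2 were below WT in every KO library without passing the adjusted threshold, Mcpt8, Cpa3, Prss34 and Cma1 had negative log2 changes with overlapping groups, and Tpsb2 had a positive one. The median log2 change was -0.54 over the 8 members and -0.03 over all tested genes. Negative changes were found for 7 of the 8, against 55.2% of tested genes, and in 3 of the 8 every KO library lay below every WT library, against 10.9% of tested genes. Fcer1a did not pass the filter and enters none of these counts. Since the members were chosen with earlier results known, these shares describe the set and are no test of it.

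**Figure D1:**
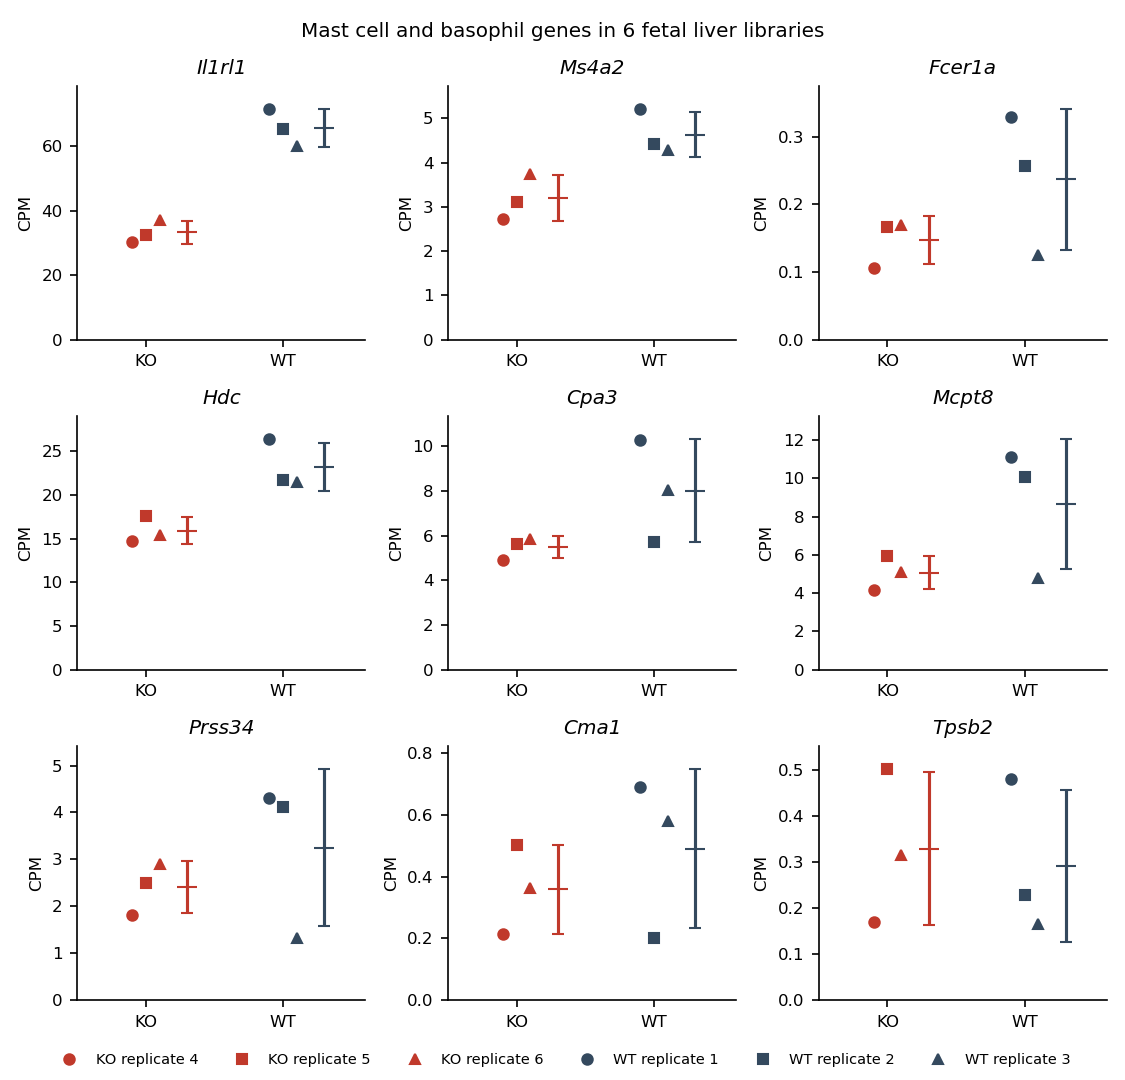
Level of each of the 9 members in CPM (vertical axes, from 0) in 3 KO and 3 WT fetal liver libraries. Points are libraries, and the dash with its bar is the mean ± SD of a group (n = 3). KO points lie below all WT points for Il1rl1, Ms4a2 and Hdc and overlap with WT points in the other 6 panels.

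Il1rl1 measured 30.3, 32.4 and 37.2 CPM in KO replicates 4, 5 and 6, against 71.5, 65.3 and 60.0 CPM in WT replicates 1, 2 and 3. The highest KO library lay well below the lowest WT library. The group means were 33.3 ± 3.50 CPM in KO and 65.6 ± 5.76 CPM in WT (SD, n = 3 each), and the log2 change was -0.98 (SE 0.11, 95% confidence interval -1.24 to -0.71). Its adjusted p was 0.0147 (edgeR, BH over 15105 genes). Among the 219 genes called lower, 91 had a larger decrease, and their median log2 change was -0.87. The log2 change ran from -1.07 to -0.91 when 1 library was left out, and 4 of these 6 fits lost the call. Leaving out WT replicate 1 gave an adjusted p of 0.0853, WT replicate 3 gave 0.0622, KO replicate 4 gave 0.0627 and KO replicate 5 gave 0.0778 (edgeR). Leaving out WT replicate 2 gave 0.0105 and KO replicate 6 gave 0.0386 (edgeR), and unadjusted p was at most 5.97e-04 in these 6 fits.

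The intron counts of Il1rl1, which come from unspliced RNA or retained introns, were lower as well. They were 20.3, 19.9 and 24.0 CPM in KO and 52.7, 53.6 and 41.7 CPM in WT, again with no overlap. The means of 21.4 ± 2.27 CPM in KO and 49.3 ± 6.64 CPM in WT (SD, n = 3 each) gave a log2 change of -1.21 (SE 0.18, 95% confidence interval -1.61 to -0.80, adjusted p = 0.0351, edgeR). Lower intron calls were made for 0.483% of the 11803 genes tested in introns, and calls in either direction for 0.72%. The exonic change minus the intronic change was 0.22 (95% confidence interval -0.16 to 0.60, unadjusted p = 0.210, edgeR interaction), so a difference between them was not detected, and the interval gives the sizes these counts leave possible. In KO livers 11.8% of the exonic plus intronic counts of Il1rl1, summed over libraries, were intronic, and in WT livers 14.2%. By library these shares overlapped, at 14.0%, 9.59% and 11.6% in KO and 12.9%, 13.9% and 16.9% in WT. The intron call held without WT replicate 3 (adjusted p = 0.0162, edgeR) and was lost without any other single library, with adjusted p from 0.0949 to 0.182 (edgeR).

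Il1rl1 lies on chromosome 1 at 40429570 to 40465415 on the plus strand of GRCm38 in the GENCODE annotation, with 11 exons in its longest coding transcript and no other annotated gene overlapping it. It has 2 start sites 10059 bases apart in RefSeq, of which the upstream one is known from mast cell lines and the downstream one from fibroblasts, and alternative transcripts encode either the membrane receptor or a soluble decoy. Gene counts add these transcripts together, so the form that is lower cannot be told from them. The windows of 250 bases before to 50 bases after both starts (RefSeq, GRCm38.p6, plus strand) are shown because the gene carries the called change and because GATA words, which GATA1 and GATA2 are known to bind, differ in number between them. Capitals mark the word AGATAA, the word TGATAA, the word AGATAG and the word TGATAG on either strand, and no word overlaps another.
Il1rl1 upstream start, chr1:40429320-40429619: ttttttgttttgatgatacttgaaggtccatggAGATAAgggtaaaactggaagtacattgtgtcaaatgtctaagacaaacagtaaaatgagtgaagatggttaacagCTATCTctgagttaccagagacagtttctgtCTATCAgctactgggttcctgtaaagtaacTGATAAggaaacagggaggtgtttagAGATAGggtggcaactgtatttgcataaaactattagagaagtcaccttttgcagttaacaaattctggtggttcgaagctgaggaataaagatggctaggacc
Il1rl1 downstream start, chr1:40439379-40439678: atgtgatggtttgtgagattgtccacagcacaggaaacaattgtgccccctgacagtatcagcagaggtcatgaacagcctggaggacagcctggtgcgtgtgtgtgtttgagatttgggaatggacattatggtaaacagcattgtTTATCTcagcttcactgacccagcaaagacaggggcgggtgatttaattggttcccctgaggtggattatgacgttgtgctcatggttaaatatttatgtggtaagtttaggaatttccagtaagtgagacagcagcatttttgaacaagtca
The upstream window holds 5 words and the downstream window 1. Of 32851 mouse windows of this length in the same table, 29.8% hold at least 1 word, 7.77% at least 2 and 0.0548% at least 5. A match is a description of letters and not a measured binding site.

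The IgE receptor is built from a ligand-binding alpha chain (Fcer1a), a signal-amplifying beta chain (Ms4a2) and a gamma chain (Fcer1g) that other Fc receptors share. Ms4a2 measured 2.73, 3.10 and 3.75 CPM in KO and 5.21, 4.42 and 4.28 CPM in WT. All KO libraries lay below all WT libraries, though KO replicate 6 came close to WT replicate 3. The log2 change was -0.54 (SE 0.19, 95% confidence interval -0.99 to -0.08) with an unadjusted p of 0.0269 and an adjusted p of 0.223 (edgeR), which does not pass. Fcer1a had 5, 7 and 7 counts in KO and 11, 9 and 3 counts in WT, which overlap and are too few to pass the filter on low counts. Fcer1g, which was not among the 9, measured 22.5 ± 3.12 CPM in KO and 28.2 ± 5.45 CPM in WT (SD, n = 3 each, log2 change -0.33, adjusted p = 0.438, edgeR).

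Hdc makes histamine from histidine. It measured 14.7, 17.6 and 15.4 CPM in KO, against 26.4, 21.7 and 21.5 CPM in WT, and the groups did not overlap. The log2 change was -0.54 (SE 0.13, 95% confidence interval -0.86 to -0.23). With an unadjusted p of 0.00528 and an adjusted p of 0.0929 it did not pass by edgeR, while DESeq2, which called 3.53% of 14187 genes lower, gave an adjusted p of 0.0211. Hdc, Ms4a2 and Il1rl1 were the 3 of 8 members lower at an unadjusted p under 0.05, beside 8.78% of tested genes.

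Cpa3, the carboxypeptidase of mast cell granules that basophil precursors also express, measured 4.92, 5.65 and 5.86 CPM in KO and 10.3, 5.70 and 8.06 CPM in WT. WT replicate 2 was as low as the KO libraries. Its log2 change of -0.55 (SE 0.24, 95% confidence interval -1.12 to 0.02) had an adjusted p of 0.316 (edgeR).

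Mcpt8 and Prss34 are serine protease genes used as basophil markers in the mouse. Mcpt8 measured 4.17, 5.92 and 5.11 CPM in KO and 11.1, 10.04 and 4.78 CPM in WT, and Prss34 1.81, 2.50 and 2.91 CPM in KO and 4.31, 4.11 and 1.33 CPM in WT. In both genes WT replicate 3 was far below the other 2 WT libraries and within or below the KO range. The log2 changes were -0.77 for Mcpt8 (95% confidence interval -1.57 to 0.02, adjusted p = 0.315, edgeR) and -0.44 for Prss34 (-1.52 to 0.64, adjusted p = 0.759, edgeR). Without WT replicate 3 they were -1.06 and -0.81, with adjusted p of 0.1204 and 0.283 (edgeR). Leaving out a library after seeing its value gives no test of its own.

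Cma1 and Tpsb2 encode a chymase and a tryptase of connective tissue mast cells. Cma1 had 10, 21 and 15 counts in KO and 23, 7 and 14 in WT, with a log2 change of -0.44 (95% confidence interval -1.73 to 0.85, adjusted p = 0.831, edgeR). Tpsb2 had 8, 21 and 13 counts in KO and 16, 8 and 4 in WT, with a log2 change of 0.14 (95% confidence interval -1.20 to 1.47, adjusted p = 0.984, edgeR). At this depth both intervals span changes as large as that of Il1rl1. Both belong to multigene families, and how reads shared between relatives were counted is not given in the sources used here. The longest coding transcript of Tpsb2 was 69.2% identical to that of its neighbour Tpsab1 over 1123 aligned bases, and Tpsab1 itself had 1, 0 and 0 counts in KO and 1, 4 and 0 in WT. Cma1 was 70.6% identical to Mcpt4, a chymase with 0, 2 and 2 counts in KO and 2, 4 and 0 in WT.

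**Figure D2:**
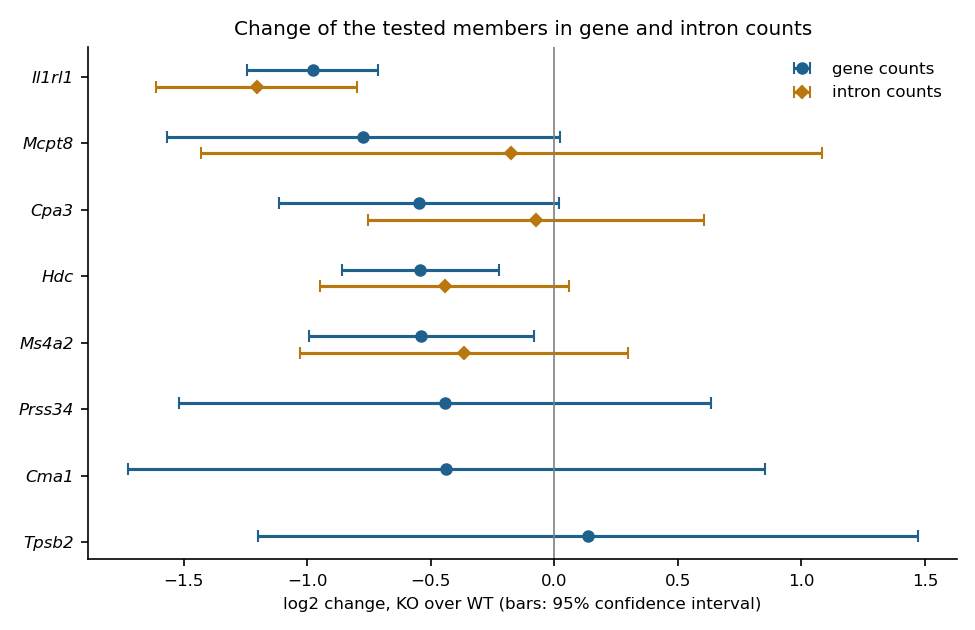
Log2 change of KO over WT (horizontal axis, 0 marked by a line) for the 8 tested members in gene counts (circles) and the 5 members tested in intron counts (diamonds). Bars are 95% confidence intervals from edgeR (3 libraries a group). For Il1rl1 both intervals lie below 0, and those of Hdc and Ms4a2 do so in gene counts alone.

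Introns of 4 further members passed the filter, and 0 of these 4 passed the test by edgeR, at an unadjusted p under 0.05 or by DESeq2. Hdc introns measured 11.7, 17.1 and 15.6 CPM in KO and 18.9, 19.1 and 22.3 CPM in WT, without overlap, and the log2 change was -0.44 (95% confidence interval -0.95 to 0.06, adjusted p = 0.532, edgeR), close to -0.54 in gene counts. Ms4a2 introns changed by -0.37 (-1.03 to 0.30), Mcpt8 introns by -0.17 (-1.431 to 1.083) and Cpa3 introns by -0.08 (-0.75 to 0.60) on the log2 scale. Cpa3 introns were 4.82, 5.53 and 4.87 CPM in KO and 6.29, 4.35 and 5.39 CPM in WT, so they overlapped fully. Exonic against intronic change was tested for 5 members, of which 0 passed, as did 0% of 11100 genes by edgeR's interaction test. At an unadjusted p under 0.05, 185 genes had the higher exonic change and 167 the higher intronic change by that test, and DESeq2 called 37 and 2, with 0 members among them.

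**Figure D3:**
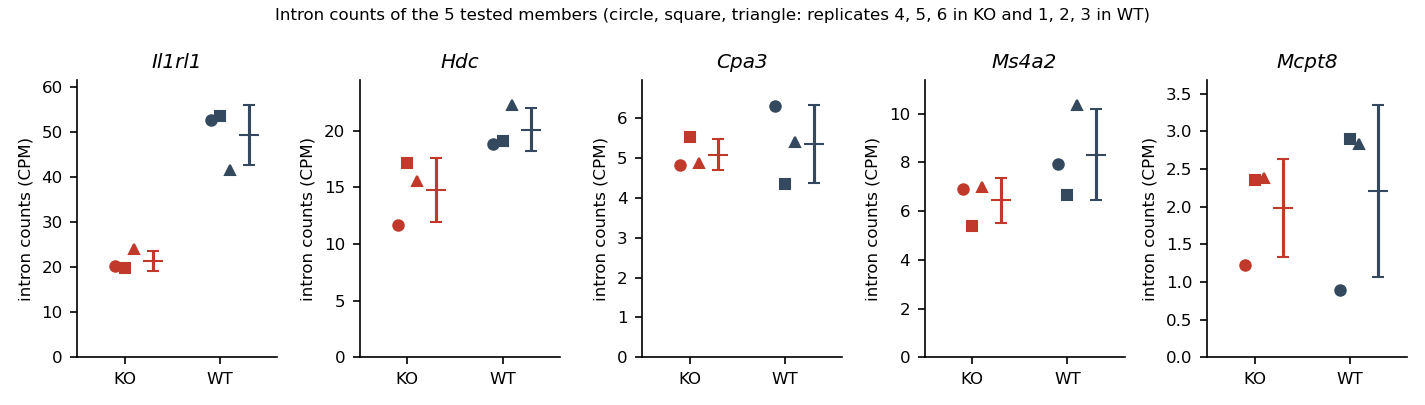
Intron counts in CPM (vertical axes, from 0) of the 5 members tested in introns, by library, with the mean ± SD of each group (n = 3). KO lies below WT without overlap for Il1rl1 and Hdc, and the groups overlap for Cpa3, Ms4a2 and Mcpt8.

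Within each library, Il1rl1 counts per count of another member did not overlap between the groups for Hdc, Cpa3 and Ms4a2 and overlapped for the other 5 members. This ratio does not depend on how libraries are scaled, and it was chosen after the values were seen. It reuses the counts of the called gene, so it is no second support for that call. There were 2.06, 1.84 and 2.42 Il1rl1 counts per Hdc count in KO, against 2.71, 3.01 and 2.79 in WT. Per Ms4a2 count there were 11.1, 10.4 and 9.90 in KO and 13.7, 14.8 and 14.0 in WT, and per Cpa3 count 6.16, 5.73 and 6.34 in KO and 6.94, 11.45 and 7.44 in WT. Per summed count of Hdc, Cpa3, Ms4a2 and Mcpt8 there were 1.143, 1.003 and 1.234 in KO and 1.348, 1.560 and 1.554 in WT. These 4 ratios did not overlap between the groups, each with a two-sided exact permutation p of 0.10, the smallest that 3 against 3 libraries allow, and 0.225 after BH adjustment over 9 ratios. Per Mcpt8 count the groups overlapped (7.27, 5.48 and 7.27 in KO and 6.43, 6.51 and 12.6 in WT, exact permutation p = 0.60). Per Prss34 count they overlapped as well (16.8, 12.9 and 12.8 in KO and 16.6, 15.9 and 45.1 in WT, exact permutation p = 0.30). For Cma1, Tpsb2 and Fcer1a, whose counts are low, exact permutation p was 0.50, 0.20 and 0.60. The mean ratio to Hdc was 2.10 ± 0.292 in KO and 2.84 ± 0.155 in WT (SD, n = 3 each).

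**Figure D4:**
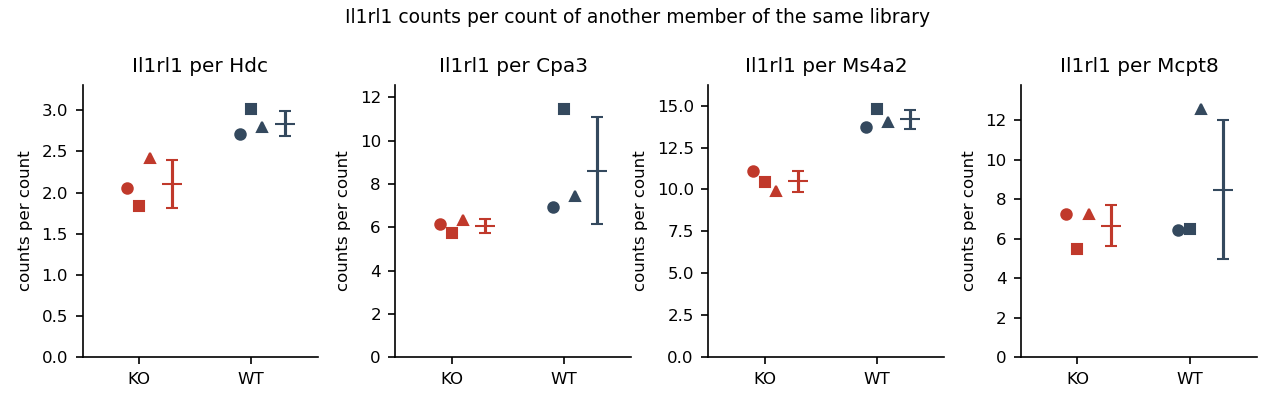
Il1rl1 counts per count of Hdc, Cpa3, Ms4a2 or Mcpt8 in the same library (vertical axes, from 0) in 3 KO and 3 WT libraries, with the mean ± SD of each group (n = 3; circle, square and triangle are replicates 4, 5 and 6 in KO and 1, 2 and 3 in WT). KO lies below WT for Hdc, Cpa3 and Ms4a2, and the groups overlap for Mcpt8.

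Deviations of the members from their group mean, on the log2 scale, were compared between libraries as a description, with no test. Of the 6 members with a mean of at least 1 CPM, 6 were below their KO group mean in KO replicate 4, 2 in KO replicate 5 and 1 in KO replicate 6. Below their WT group mean were 0 in WT replicate 1, 4 in WT replicate 2 and 5 in WT replicate 3. The mean deviation was -0.18 in KO replicate 4, 0.07 in KO replicate 5 and 0.12 in KO replicate 6, against 0.29 in WT replicate 1, 0.02 in WT replicate 2 and -0.32 in WT replicate 3. Prss34 (-0.91) and Mcpt8 (-0.71) deviated most in WT replicate 3, and Il1rl1 deviated by -0.12 there. In WT replicate 2 the members lay on both sides of their group means, with Cpa3 at -0.42, Mcpt8 at 0.29 and Prss34 at 0.42.

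The longest annotated 3' UTR of Il1rl1 holds no seed match for the deleted microRNAs, and 2 of the 9 members have one in theirs. The 3 mature microRNAs of the deleted locus are shown because matches to their seeds, bases 2 to 8 in capitals, define the sites (RefSeq, GRCm38.p6, chromosome 11, plus strand).
miR-451a, chr11:78073186-78073207: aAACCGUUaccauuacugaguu
miR-144-3p, chr11:78073047-78073066: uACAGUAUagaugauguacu
miR-144-5p, chr11:78073010-78073032: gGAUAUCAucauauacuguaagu
In the longest GENCODE 3' UTR of each gene, Ms4a2 has 1 match to miR-144-3p and 1 to miR-144-5p, and Tpsb2 has 1 to miR-144-3p, all in capitals.
Ms4a2, miR-144-3p site: acattcagggATACTGTgagtatcctt
Ms4a2, miR-144-5p site: cctggctataTGATATCctacatcaaa
Tpsb2, miR-144-3p site: tctggtctccATACTGTgtgctgaccc
Over 21039 genes with an annotated 3' UTR, 1.75% hold the miR-451a word, 11.9% the miR-144-3p word and 6.12% the miR-144-5p word. Ms4a2 (-0.54) and Tpsb2 (0.14) did not pass the test in gene counts. The 3' UTR of Il1rl1 searched was 3246 bases long, and any 3' UTR of its other coding transcripts was not searched.

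GATA words were common in the start windows of the other members too. Windows were found for 8 members, Il1rl1 with its 2 windows among them, and 7 of the 8 have at least 1 word, while Mcpt8 has 0. A stretch around 1 word per gene is shown for 5 members, because these letters are what they share with Il1rl1, with the word in capitals on the gene's strand, reading TTATCT where it lies on the opposite strand.
Cpa3, from position -46: ctgttcgtcgAGATAAaagctgaggt
Ms4a2, from position -37: gcctggagacTTATCTgacaagtagg
Fcer1a, from position -92: aaccctattaTTATCTctggagaaag
Prss34, from position -31: tgtggaagaaAGATAAatgggaccct
Hdc, from position -221: ggggcagggaTGATAGagggctcttt
Positions are those of the word's first base as printed, counted back from the gene's start. Ms4a2 has a word at -11 as well (ttccgcatgaAGATAAtcattggtat) and 3 in all. Of the 9 windows 8 hold at least 1 word, beside 29.8% of all windows.

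Genes that act with the members were taken from 8 lists of 89 symbols, of which 68 genes were tested. Of the 68, 1 was called higher by edgeR, 0 were called lower and 67 did not pass, beside 3.28% of all tested genes called in either direction. By edgeR 8 of the 68 were higher and 9 lower with p under 0.05 before adjustment, beside 7.77% and 8.78% of all tested genes. DESeq2 called 4 higher and 1 lower of 64 given an adjusted p, beside 3.83% and 3.53% of all genes it tested. The gene called higher by edgeR was Csf2rb2, a beta subunit of the interleukin-3 receptor through which basophils and mast cells are stimulated to grow. It measured 44.4, 46.5 and 51.9 CPM in KO and 13.3, 15.2 and 10.3 CPM in WT, a log2 change of 1.88 (SE 0.16, adjusted p = 0.00830, edgeR). Csf2rb2 has a closely related copy, Csf2rb, and reads shared by both could be assigned to either. Csf2rb measured 56.4 ± 3.55 CPM in KO and 45.9 ± 6.05 CPM in WT (SD, n = 3 each), with every KO library above every WT library. Its log2 change was 0.30 (adjusted p = 0.266, edgeR). The part of shared reads in either change was not tested.

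Of 13 tested genes of the IgE receptor pathway 0 passed, 12 had a negative log2 change, beside 55.2% of all tested genes, and the median was -0.27. By edgeR 4 were lower with p under 0.05 before adjustment, beside 8.78% of all tested genes. DESeq2 called 1 lower, beside 3.53% of all genes it tested. In 5 of the 13 every KO library lay below every WT library, beside 10.9% of all tested genes. In 1, Inpp5d, every KO library lay above, beside 11.8%. The 5 were the kinase genes Syk (-0.31, adjusted p = 0.135, edgeR) and Fyn (-0.42, adjusted p = 0.0856, edgeR), which act at the receptor, the adaptor genes Lcp2 (-0.31) and Lat2 (-0.36), and the phospholipase gene Plcg2 (-0.34). The 2 most abundant genes, the phosphatase gene Inpp5d (0.09) and the kinase gene Btk (-0.10), were close to 0. Of 7 genes of interleukin-33 signalling 0 passed and the median was -0.00479. Il1rap, the co-receptor of ST2, measured 7.74 ± 0.735 CPM in KO and 8.45 ± 0.516 CPM in WT (SD, n = 3 each), and the adaptor gene Myd88 26.2 ± 1.27 CPM in KO and 25.3 ± 0.461 CPM in WT. The ligase gene Traf6 downstream of them measured 51.6 ± 0.847 CPM in KO and 38.1 ± 3.12 CPM in WT (log2 change 0.44, adjusted p = 0.0512, edgeR), and Irak1 94.3 ± 2.74 CPM in KO and 94.6 ± 7.58 CPM in WT. Traf6 passed with DESeq2's size factors in edgeR (adjusted p = 0.0452).

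The growth factor receptor Kit, needed for mast cell development and shared with blood progenitors, measured 103 ± 5.95 CPM in KO and 111 ± 6.02 CPM in WT (SD, n = 3 each), with an adjusted p of 0.641 (edgeR). Among 11 tested transcription factor genes 0 passed, including Gata2, which was below WT in every KO library (6.67 ± 0.167 CPM in KO and 8.52 ± 0.810 CPM in WT, log2 change -0.35, adjusted p = 0.253, edgeR). Tal1 (-0.38) was also below WT in every KO library, whereas Stat5b (0.27, adjusted p = 0.102, edgeR) and Runx1 (0.34, adjusted p = 0.200, edgeR) were above WT in every KO library. So 2 of the 11 lay below without overlap and 2 above, beside 10.9% and 11.8% of all tested genes. DESeq2 called 1 of the 11 higher, Stat5b, beside 3.83% of all genes it tested. The most abundant of them were Tal1 and Ikzf1 (-0.16). Of 3 tested protease relatives 0 passed, with Ctsc at -0.19 and Ctsg at -0.29. For granule matrix and amine handling 0 of 8 passed, with Srgn, the granule proteoglycan core, at -0.23, Hs6st1 at -0.36 and Slc18a2, the transporter that loads histamine into granules, at -0.39. In 1 of these 8 the groups did not overlap, with every KO library above every WT library, beside 11.8% of all tested genes. It was Ndst2, an enzyme of granule heparin synthesis (0.28, adjusted p = 0.221, edgeR). For lipid mediators 0 of 6 passed, with Ptgs1 at -0.32 and Alox5ap at -0.39. For surface genes and cytokines 0 of 12 passed, with Cd63 at -0.15 and Itgb7 at 0.62 (adjusted p = 0.0911, edgeR). In 2 of these 12 every KO library lay below every WT library, beside 10.9% of all tested genes. In 2 others every KO library lay above, beside 11.8%. Below were Cd200r3, a receptor of mast cells and basophils (-0.61, adjusted p = 0.212, edgeR), and Cd69 (-0.37, adjusted p = 0.357, edgeR). Above were Itgb7 and the cytokine gene Il4 (0.82, adjusted p = 0.283, edgeR), which stayed below 1 CPM in every library. Syk, Fyn, Lcp2, Lat2, Plcg2, Kit, Csf2rb, Gata2, Stat5b, Runx1, Ndst2, Il1rap, Myd88, Slc18a2, Cd200r3, Cd69 and Il4 were named after their values were seen.

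The summed levels of eosinophil and erythroid markers separated the groups in the same direction as the members' sum. The 9 members summed to 59.2, 68.4 and 71.0 CPM in KO and 130, 112 and 101 CPM in WT. The summed level of 9 eosinophil markers was 189 to 287 CPM in KO and 299 to 378 CPM in WT, also without overlap, with a median log2 change of -0.53 over the 8 tested. By edgeR 0 of these 8 passed, with 5 lower at an unadjusted p under 0.05 (8.78% of all tested genes were), and DESeq2 called 0. Neutrophil markers summed to 1510 to 3182 CPM in KO and 2381 to 4153 CPM in WT and overlapped, with a median log2 change of -0.60 and 0 of 8 called by edgeR, at an unadjusted p under 0.05 or by DESeq2. The summed erythroid markers were lower in every KO library than in every WT library. So were 6 of the 8 genes, beside 10.9% of all tested genes, while Epor and Rhag overlapped. The median log2 change of the 8 was -0.56. By edgeR 1 of the 8 was called lower, Tfrc, beside 1.45% of all tested genes. DESeq2 called 6 lower, beside 3.53% of all genes it tested. The part of these cell types in the change of Il1rl1 was not tested.

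Group 2 innate lymphoid cells, some T cells and some endothelial cells can make ST2, and their summed markers overlapped between the groups. Whether cells of the other marker lists make ST2 here was not tested. The 8 markers of group 2 innate lymphoid and T cells summed to 6.79 to 21.9 CPM in KO and 7.81 to 22.8 CPM in WT, with Klrg1 and Cd3e at 0 in at least 1 library and a median log2 change of -0.39 over the 5 tested, of which 0 passed by edgeR, at an unadjusted p under 0.05 or by DESeq2. Rora, at 3.81 to 15.8 CPM in KO and 3.07 to 13.4 CPM in WT, made up much of this sum and was highest in KO replicate 6 and WT replicate 2. The 7 endothelial markers summed to 110 to 249 CPM in KO and 84.5 to 249 CPM in WT (median log2 change 0.14), highest in KO replicate 6 and WT replicate 2, which were also the highest in hepatocyte markers. Without both of these libraries Il1rl1 had a log2 change of -1.04 (adjusted p = 0.0106, edgeR). The part of endothelial cells or hepatocytes in the change of Il1rl1 was not tested by leaving them out. Megakaryocyte markers (225 to 370 CPM in KO and 217 to 420 CPM in WT) and macrophage markers (245 to 394 CPM in KO and 204 to 542 CPM in WT) overlapped too.

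**Figure D5:**
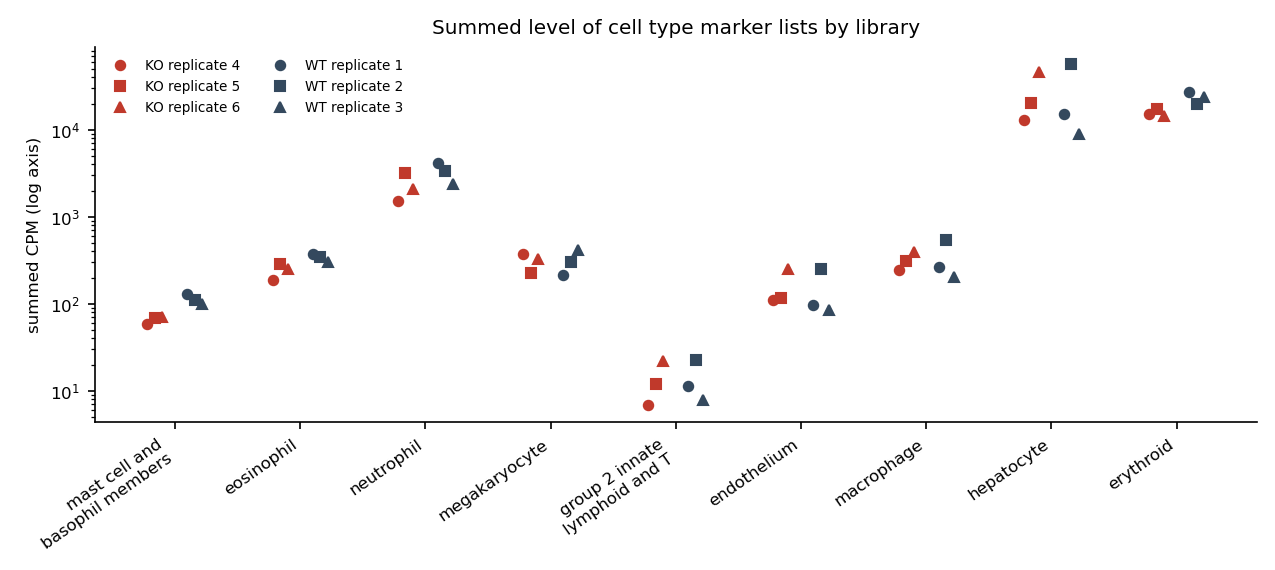
Summed CPM of the 9 members and of 8 cell type marker lists (log vertical axis) in each library, KO left of WT. The sums of members, eosinophil markers and erythroid markers are lower in every KO library than in every WT library, and the other 6 lists overlap.

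The genes whose pattern over the 6 libraries was most like the members' were found by the root mean square difference of centred log2 levels (CPM plus 0.5) from the mean of the 6 members above 1 CPM. Over 11527 candidate genes the median difference was 0.39, and the 8 nearest ran from 0.07 to 0.10. They were Rnase6, Zfp382, Evi2b, Krt80, Rdm1, Tnfaip8, Mettl7a1 and Tusc1, with log2 changes between -0.77 and -0.44, and each was below WT in every KO library. The members' mean itself was below WT in every KO library, so this direction, and the p under 0.05 before adjustment that 7 of the 8 had, follow from how they were chosen and are no result of their own. Of these 8, 0 passed the threshold in gene counts by edgeR, the lowest adjusted p being 0.0677 for Tnfaip8 (edgeR). Il1rl1 itself differed from the mean of the other 5 by 0.28, Ms4a2 by 0.16, Hdc by 0.16, Mcpt8 by 0.26, Cpa3 by 0.29 and Prss34 by 0.41.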

How the data were processed

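Polyadenylated RNA of 6 fetal liver samples was sequenced on HiSeq2000, and the authors deposited raw counts per gene symbol, with globin and mitochondrial genes taken out per the file name, and a second table of exon and intron counts. STAR and HTSeq are named in the submitters' processing notes, without versions, beside the builds NCBIM37 and mm10. The build of each table's gene models (the gene table's name gives NCBIM37), strand setting and intron definition are otherwise not given in the sources used here. Exon counts equalled gene counts for all 15543 shared genes, so they are no second measurement. Cma1 is in the gene table alone.

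With edgeR 4.0.16 (R 4.3.3), KO was tested against WT on TMM-scaled counts by the quasi-likelihood F test, filterByExpr with a minimum count of 10 and total of 15, threshold 0.05 after BH adjustment over all tested genes. Standard errors come from the F statistic and tests are two-sided. Exonic and intronic changes were compared in 1 fit with a term per sample. The steps were tested on simulated data. CPM uses the TMM-scaled library size. Reads carry no molecular identifiers. Pairs of libraries in a group differed by a chi-square of 16.7 to 157 per degree of freedom, beyond sampling noise, so each is 1 replicate. Alternatives were DESeq2 1.42.0, limma-voom (limma 3.58.1), other scalings, no filter and libraries left out. Replicate numbers are not shared between the groups.

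All 9 members are named, with every called gene of each list or the 2 most abundant, and the 8 genes of the most similar pattern among named genes of at least 1 CPM. Members and lists were chosen with earlier results of these data known. Positions are those of GENCODE M21 and RefSeq (GRCm38), not of the count tables.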

Additional observations from a re-analysis of the deposited data

How the results depend on the processing

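The number of members called in gene counts was 1 (Il1rl1) with edgeR under TMM, DESeq2's size factors, library totals without TMM factors (added after the data were seen), no filter on low counts and limma-voom, and without both WT replicate 2 and KO replicate 6. DESeq2 called 2, adding Hdc, with 6 members given an adjusted p, and it called 543 of 14187 genes higher and 501 lower. Leaving out 1 library gave 0 to 1, and leaving out WT replicate 1, WT replicate 3, KO replicate 4 or KO replicate 5 gave 0. In those 4 fits 5 to 14 genes were higher and 7 to 12 lower over the whole table. Il1rl1 kept a negative change in every fit, from -1.07 to -0.91 with 1 library left out and -0.89 with library totals alone. Intron calls among members were 0 to 1 with 1 library left out. Members called in exonic against intronic change were 0 in every fit. Of 68 pathway genes 1 was called, against 2 with DESeq2's size factors in edgeR, 4 with library totals without TMM factors, 5 by DESeq2 and 6 without both WT replicate 2 and KO replicate 6, and 0 to 5 with 1 library left out (0 without WT replicate 1, KO replicate 4 or KO replicate 5 and 5 without WT replicate 2). Library totals alone gave 551 genes higher and 250 lower over the whole table, beside 276 and 219. Tpsb2 changed sign without both WT replicate 2 and KO replicate 6 (-0.01), and its range with 1 library left out was -0.30 to 0.70. The cause of these differences was not tested. No paired analysis was possible because the groups share no replicate number. Fcer1a, Cma1 and Tpsb2, with 3 to 23 counts per library, are limited by depth.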
